A study of Mus musculus with 12 samples.

Results

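The amino acid transporter families are described here in mouse blood cells and in acute myeloid leukaemia (AML) cell lines. Members were all probe sets of the array whose single gene symbol in the platform annotation starts with Slc1a, Slc3a, Slc6a, Slc7a, Slc36a, Slc38a or Slc43a. This rule uses names only and found 102 of 28898 single-symbol probe sets, for 58 of 17097 genes. It takes in a few genes that carry other cargo, such as monoamines, creatine or nucleobases, and 2 symbols with the ending "os" for opposite-strand transcripts, Slc36a1os and Slc6a19os. A gene was tested when at least 1 of its probe sets was brighter than its array's 40th percentile on 3 or more of the 12 arrays. That filter kept 41 of the 58 genes, among 12560 genes kept in all.

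RNA was profiled on 12 arrays, 3 in each of 4 groups. The Ts1Cje Trib1 group and the B6 Trib1 group are AML cell lines that express Trib1, given in the sample titles as Trib1 WT. The Ts1Cje group and the B6 group are labelled only as hematopoietic cells of those mice. Ts1Cje mice carry an additional copy of part of chromosome 16 and model Down syndrome, and B6 is the wild type. Trib1 is a pseudokinase known for sending C/EBP alpha, a factor of myeloid maturation, to the proteasome. All 4 groups were grown in medium with 10% serum and 5 ng/ml of the cytokine IL-3, without further treatment, and 100 ng of total RNA was labelled for each array. Trib1 and the leukaemic state therefore go together and cannot be told apart. The labels give neither the age of the mice, nor the vector that carries Trib1, nor the number of lines or animals in a group, so the p-values cover only the spread between arrays, which may be technical. Of the 58 members, Slc7a4 alone lies on chromosome 16, and 0 lie between Sod1 and Mx1 on the trisomic stretch.

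Amino acids cross membranes through families of carriers with different couplings. The Slc1 carriers and many Slc6 and Slc38 carriers use the sodium gradient to concentrate their cargo, whereas most Slc7 and Slc43 carriers exchange or equilibrate it. Many Slc7 light chains reach the cell surface only when bound to the heavy chain Slc3a2, known as CD98, and blood cells raise CD98 and its partners when they start to grow. Slc36 carriers and some Slc38 carriers sit on lysosomes, where amino acid release is read by the growth-controlling kinase complex mTORC1.

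The intensities were close to one scale on all arrays, with the 40th percentile between 22 and 23.5. Arrays of 1 group had correlations across genes from 0.997 to 0.999, against 0.915 to 0.993 between groups. The better measured of the 2 Trib1 probe sets read 41.8, 47.3 and 48.6 in Ts1Cje Trib1, 47.0, 48.7 and 43.1 in B6 Trib1, 70.5, 69.5 and 76.0 in Ts1Cje and 78.5, 82.1 and 68.2 in B6, and it is not known to lie inside the expressed construct, so its lower values in the lines do not check the labels. The leukocyte markers Ptprc, Spi1, Cd53 and Coro1a were present in every group, with sums from 9034 to 9441 in Ts1Cje Trib1, 9890 to 10000.7 in B6 Trib1, 10699 to 10943 in Ts1Cje and 10125 to 10478 in B6. Markers of single blood lineages differed between the groups. The 6 mast cell and basophil markers summed to 21233 to 21999 in Ts1Cje Trib1, 18531 to 18882 in B6 Trib1, 4536 to 4800 in Ts1Cje and 2899 to 2956 in B6. The 5 monocyte and macrophage markers summed to 871 to 964 in Ts1Cje Trib1, 2283 to 2319 in B6 Trib1, 4957 to 5078 in Ts1Cje and 3783 to 3936 in B6. In such bulk RNA, fewer cells of a type and less RNA per cell cannot be told apart.

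The 41 tested transporters ranged from dim to very bright, and levels of different genes were not compared because each probe set has its own response. Of the kept genes, 6 had a mean of at least 1000 over all arrays, and these were Slc3a2, Slc38a10, Slc38a2, Slc7a5, Slc38a1 and Slc6a6. A mean of at least 100 in some group was reached by 24 genes. The kept genes were 2 of 6 in Slc1a, 2 of 2 in Slc3a, 12 of 19 in Slc6a, 11 of 15 in Slc7a, 4 of 4 in Slc36a, 7 of 9 in Slc38a and 3 of 3 in Slc43a. The 17 genes left out were Slc1a2, Slc1a3, Slc1a6, Slc1a7, Slc6a5, Slc6a12, Slc6a14, Slc6a18, Slc6a19os, Slc6a20a, Slc6a20b, Slc7a9, Slc7a12, Slc7a14, Slc7a15, Slc38a4 and Slc38a5, many of them known from brain, kidney, gut or liver. Their brightest value on any array was 23.5, in Slc6a19os. Of the kept genes, 32 were above the 40th percentile on all 12 arrays and 9 on fewer, and 3 of these 9 were above it on all 3 arrays of exactly 1 group (Slc1a1, Slc36a1os and Slc6a15), so for those the filter itself favoured a difference. Slc6a7 was above it on 6 arrays, all of them arrays of the lines, so the same held for its differences with Trib1. Slc7a7 was above it on 8 arrays, every cell array among them, and the line arrays alone would not have kept it. The filter thus favoured its fall with Trib1.

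With Trib1, the serotonin transporter Slc6a4 and the GABA and taurine transporter Slc6a13 rose most, and the arginine transporter Slc7a2 and the Slc38 member Slc38a6 fell most, in both genotypes. In B6 Trib1 against B6, 36 of 41 genes passed at an adjusted p under 0.05 in limma, where 65.2% of all 12560 genes did. Differences were taken on log2(intensity + 15) with Benjamini-Hochberg adjustment over the 12560 genes. Of the 36, 19 were higher, against 34.1% of all genes, and 17 were lower, against 31.1%. In Ts1Cje Trib1 against Ts1Cje, 27 of 41 passed, where 60.9% of all genes did, with 12 higher against a background of 34.1% and 15 lower against 26.8%. After centring the arrays on the median of the tested genes, the B6 comparison had 21 higher and 14 lower, where 70.6% of all calls were higher instead of 52.3%. The median absolute log2 difference of the 41 genes was 0.31 in the B6 background and 0.22 in the Ts1Cje background, against 0.18 and 0.19 over all genes. Differences of at least 2-fold were fewer, 2 higher and 3 lower in the B6 background (2.71% and 4.15% of all genes) and 4 higher and 5 lower in the Ts1Cje background (4.19% and 6.08%).

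Among the carriers of cationic amino acids, Slc7a2 (CAT2), which supplies arginine to macrophages, was nearly dark in both lines. It read 26.3, 19.97 and 25.5 in Ts1Cje Trib1, 24.04, 23.6 and 26.9 in B6 Trib1, 902, 764 and 831 in Ts1Cje and 384, 395 and 378 in B6. All 6 line arrays lay near the 40th percentile and far below every array of the cells without Trib1. The log2 difference was -4.44 ± 0.068 (SE) in Ts1Cje Trib1 against Ts1Cje, or 21.8-fold lower (adjusted p = 3.44e-15, limma). In B6 Trib1 against B6 it was -3.33 ± 0.068, or 10.1-fold lower (adjusted p = 1.07e-13, limma). These log2 values carry an added offset of 15, which matters for such dim signals, and with an offset of 1 the Slc7a2 differences were -5.07 and -3.91. The other 2 kept Slc7a2 probe sets also had lower values with Trib1, with differences of -3.68 and -2.29 in the Ts1Cje background and -2.54 and -1.12 in the B6 background.

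The other cationic carriers changed by less. Slc7a1 (CAT1), the general arginine and lysine importer of growing cells, averaged 943 ± 21.7 in Ts1Cje Trib1, 916 ± 7.40 in B6 Trib1, 937 ± 16.4 in Ts1Cje and 1059 ± 41.5 in B6 (SD, n = 3 arrays each). It fell in B6 Trib1 against B6 by 0.21 on the log2 scale (adjusted p = 0.000346, limma) and did not pass in the Ts1Cje background, at 0.0086. Its 2 other probe sets, with means of 27.2 and 534 over all arrays, gave 0.02 and -0.46 in the Ts1Cje background and 0.03 and -0.59 in the B6 background. The 2 brighter probe sets of Slc7a1 thus both fell in the B6 background, by different amounts. In the Ts1Cje background they disagree, at 0.0086 and -0.46. Slc7a3 (CAT3) read 35.8, 33.05 and 38.4 in Ts1Cje Trib1, 36.7, 35.7 and 30.9 in B6 Trib1, 55.4, 44.3 and 45.3 in Ts1Cje and 68.5, 75.9 and 73.4 in B6. The B6 arrays were the highest and the line arrays the lowest, without overlap between lines and cells of 1 genotype. It fell by 0.32 (adjusted p = 0.00124, limma) in Ts1Cje Trib1 against Ts1Cje and by 0.83 (adjusted p = 2.16e-07, limma) in B6 Trib1 against B6. Slc7a4, a relative of these carriers, rose by 0.22 and 0.25 in the same comparisons.

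The CD98 heavy chain Slc3a2 stayed bright everywhere while its light chains moved in different directions. Slc3a2 read 2357, 2321 and 2164 in Ts1Cje Trib1, 2025, 2114 and 1956 in B6 Trib1, 2069, 2098 and 2229.7 in Ts1Cje and 2026, 2069 and 2036 in B6. The ranges of lines and cells overlapped in both genotypes, and the differences of 0.10 (95% interval -0.0015 to 0.19) and -0.0091 (-0.11 to 0.089) did not pass. Slc7a5 (LAT1), which imports leucine and other large neutral amino acids, read 1161, 1166 and 1139 in Ts1Cje Trib1, 1050.4, 1037 and 1042 in B6 Trib1, 1327, 1325 and 1343 in Ts1Cje and 1315, 1307 and 1261 in B6. Every line array was below every cell array, and the differences were -0.20 ± 0.033 in Ts1Cje Trib1 against Ts1Cje (adjusted p = 9.90e-05, limma) and -0.31 ± 0.033 in B6 Trib1 against B6 (adjusted p = 2.46e-06, limma).

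The light chains Slc7a8 and Slc7a6 rose with Trib1 in both genotypes. Slc7a8 (LAT2), a further carrier of neutral amino acids, read 652, 599 and 496 in Ts1Cje Trib1, 372, 371 and 398 in B6 Trib1, 355, 299.6 and 312 in Ts1Cje and 217, 227 and 220.0 in B6. The lines were higher than the cells of their own genotype, although B6 Trib1 was close to Ts1Cje. The rise was 0.82 ± 0.084 in Ts1Cje Trib1 against Ts1Cje (adjusted p = 1.18e-06, limma) and 0.74 ± 0.084 in B6 Trib1 against B6 (adjusted p = 4.47e-06, limma). Slc7a6 (y+LAT2), which exchanges cationic for neutral amino acids, read 435, 447 and 409.9 in Ts1Cje Trib1, 398, 429 and 396 in B6 Trib1, 198, 182 and 195 in Ts1Cje and 265, 281 and 282 in B6. All 6 line arrays were above all 6 cell arrays, with the Ts1Cje cells lowest. It rose by 1.11 ± 0.048 (adjusted p = 1.39e-10, limma) in the Ts1Cje background and by 0.54 ± 0.048 (adjusted p = 4.42e-07, limma) in the B6 background, and its second probe set gave 0.99 and 0.50.

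The related exchanger Slc7a7 (y+LAT1), which exports arginine and lysine and whose loss in humans causes lysinuric protein intolerance, went the other way. Slc7a7 read 20.4, 23.2 and 20.7 in Ts1Cje Trib1, 21.2, 26.3 and 19.4 in B6 Trib1, 118, 114 and 128 in Ts1Cje and 61.4, 52.1 and 62.3 in B6. Line arrays lay at or near the 40th percentile, and both groups of cells were clearly above it, so the gene was kept through the cells. The difference was -1.89 ± 0.072 in Ts1Cje Trib1 against Ts1Cje (adjusted p = 3.19e-11, limma) and -0.98 ± 0.072 in B6 Trib1 against B6 (adjusted p = 5.50e-08, limma). Slc7a11 (xCT), which takes up cystine for glutathione in exchange for glutamate, read 54.9, 57.04 and 61.4 in Ts1Cje Trib1, 64.4, 60.9 and 64.01 in B6 Trib1, 109, 102 and 111 in Ts1Cje and 94.5, 87.4 and 106 in B6. It was lower on every line array, with a difference of -0.75 (adjusted p = 6.95e-08, limma) in the Ts1Cje and -0.51 (adjusted p = 5.56e-06, limma) in the B6 background, and its second probe set gave -1.11 and -1.83. Slc7a10 (Asc-1), a carrier of small neutral amino acids, was dim at 27.3, 26.7 and 29.4 in Ts1Cje Trib1, 31.99, 33.5 and 27.5 in B6 Trib1, 25.3, 30.6 and 30.3 in Ts1Cje and 24.9, 25.8 and 23.97 in B6. Its groups overlapped in the Ts1Cje background, where the difference was -0.029, and it was higher by 0.20 in B6 Trib1 against B6 (adjusted p = 0.00804, limma). The second heavy chain, Slc3a1, was dim as well, averaging 34.2 ± 2.39 in Ts1Cje Trib1, 35.2 ± 1.05 in B6 Trib1, 29.4 ± 0.743 in Ts1Cje and 26.2 ± 0.218 in B6.

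**Figure D1:**
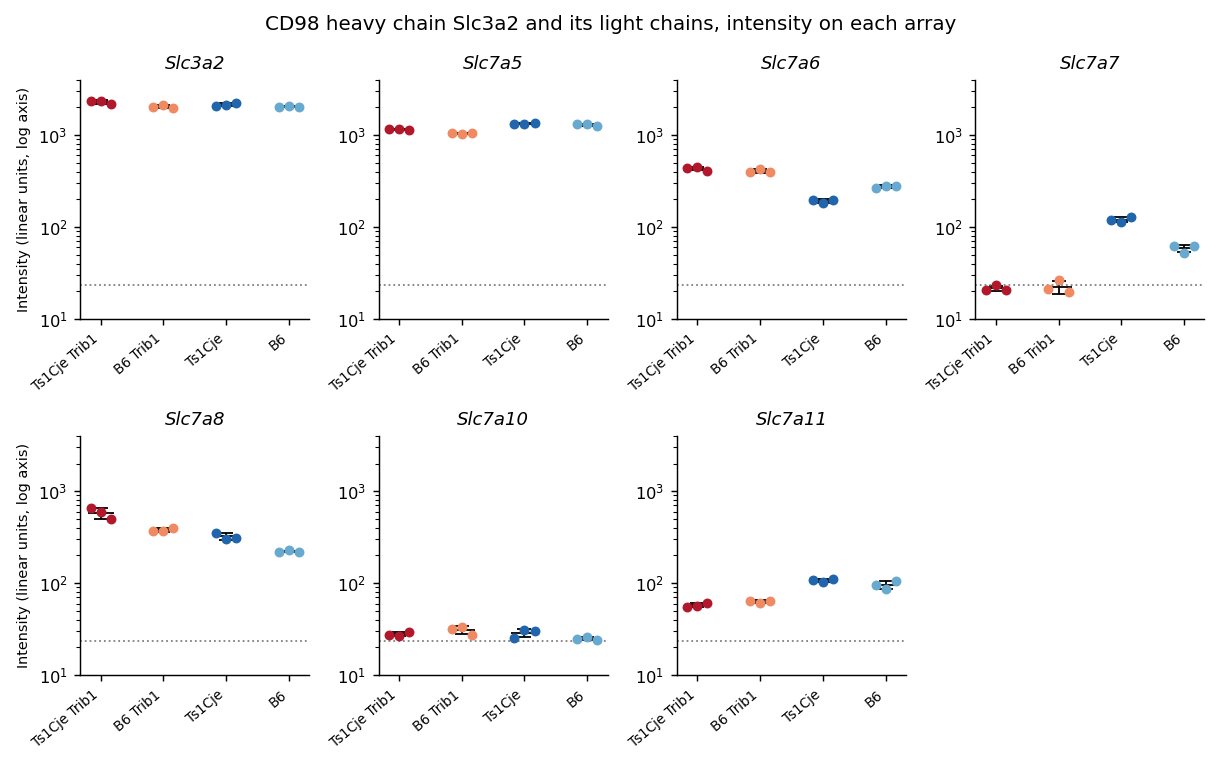
Intensity of Slc3a2 and 6 of its light chains on each of the 12 arrays, on a log axis, with 1 point per array, bars for the mean and SD of 3 arrays, and a dotted line at 23.5, the highest 40th percentile. Slc3a2 differs little between the groups, Slc7a6 and Slc7a8 are higher with Trib1, and Slc7a7 and Slc7a11 are lower.

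Slc6 carriers use sodium and chloride to take up neurotransmitters, osmolytes and amino acids, and they showed the largest rises. Slc6a4, the serotonin transporter, read 411, 388 and 351 in Ts1Cje Trib1, 393, 379 and 396 in B6 Trib1, 19.5, 22.5 and 25.1 in Ts1Cje and 18.7, 27.7 and 24.5 in B6. It was near the 40th percentile on all 6 arrays without Trib1 and far above it on all 6 with Trib1. The rise was 3.41 ± 0.082, or 10.7-fold, in Ts1Cje Trib1 against Ts1Cje (adjusted p = 2.65e-13, limma) and 3.39 ± 0.082, or 10.5-fold, in B6 Trib1 against B6 (adjusted p = 5.68e-13, limma). With an offset of 1 the rises of Slc6a4 were 4.044 and 4.002 on the log2 scale.

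Slc6a13 (GAT2) takes up GABA and taurine. It read 540.5, 532 and 540.2 in Ts1Cje Trib1, 435, 435 and 465 in B6 Trib1, 95.2, 89.3 and 87.4 in Ts1Cje and 59.8, 53.1 and 68.1 in B6. All 4 groups were separate, with the lines far above the cells. The rise was 2.39 ± 0.061, or 5.23-fold, in the Ts1Cje background (adjusted p = 4.68e-13, limma) and 2.61 ± 0.061, or 6.12-fold, in the B6 background (adjusted p = 4.07e-13, limma). The sum of the mast cell and basophil markers rose in the same comparisons. Among them, Cpa3 was at 7813 in Ts1Cje Trib1, 7471 in B6 Trib1, 399 in Ts1Cje and 296 in B6. The part of these markers in the rise of Slc6a4 and Slc6a13 was not tested. Slc6a9 (GlyT1), the glycine importer that erythroid precursors use for haem, read 243, 251 and 207 in Ts1Cje Trib1, 206, 197 and 201 in B6 Trib1, 99.5, 92.8 and 104 in Ts1Cje and 117, 129 and 112 in B6. Every line array was above every cell array. It rose by 1.13 ± 0.067 (adjusted p = 3.91e-09, limma) in the Ts1Cje and by 0.69 ± 0.067 (adjusted p = 1.01e-06, limma) in the B6 background, and a dimmer second probe set gave 0.47 and 0.39. The 4 measured erythroid markers summed to 2057 to 2146 in Ts1Cje Trib1, 1692 to 1846 in B6 Trib1, 546 to 598 in Ts1Cje and 1095 to 1147 in B6, and their part was not tested either.

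Other Slc6 members fell. The taurine transporter Slc6a6 read 798, 799 and 926 in Ts1Cje Trib1, 855, 840.0 and 822 in B6 Trib1, 1522, 1732 and 1531 in Ts1Cje and 1335, 1281 and 1219.8 in B6. Lines were lower than cells without overlap, at -0.91 ± 0.064 in the Ts1Cje background (adjusted p = 2.33e-08, limma) and -0.60 ± 0.064 in the B6 background (adjusted p = 2.66e-06, limma). Of its 3 other probe sets, the brightest, with a mean of 517 over all arrays, gave -0.94 and -0.49. The other 2, with means of 42.2 and 21.9, gave -0.08 and 0.16 and -0.06 and 0.17. In B6 the 2 bright probe sets of Slc6a6 thus agree in direction, and the 2 dim ones differ from them. Slc6a8, the creatine transporter, was lower at -0.88 and -0.73 in the same comparisons (adjusted p = 2.88e-08 and 3.18e-07, limma). Slc6a15 (B0AT2), a carrier of branched-chain amino acids and proline, read 12.3, 13.2 and 13.6 in Ts1Cje Trib1, 12.9, 12.5 and 12.96 in B6 Trib1, 13.2, 13.4 and 13.8 in Ts1Cje and 33.98, 35.5 and 37.8 in B6. Only the B6 arrays were above the 40th percentile, so the filter favoured its fall from B6. That difference of -0.87 (adjusted p = 1.93e-10, limma) in B6 Trib1 against B6 ends at a dim level, and the Ts1Cje difference was -0.023. The proline transporter Slc6a7 rose by 0.33 and 0.47, but its mean was at most 31.7 ± 2.01 in any group. The dim members Slc6a2, Slc6a3, Slc6a17, Slc6a19 and Slc6a21 passed in B6 Trib1 against B6, with rises from 0.12 to 0.31, and did not pass in the Ts1Cje background.

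**Figure D2:**
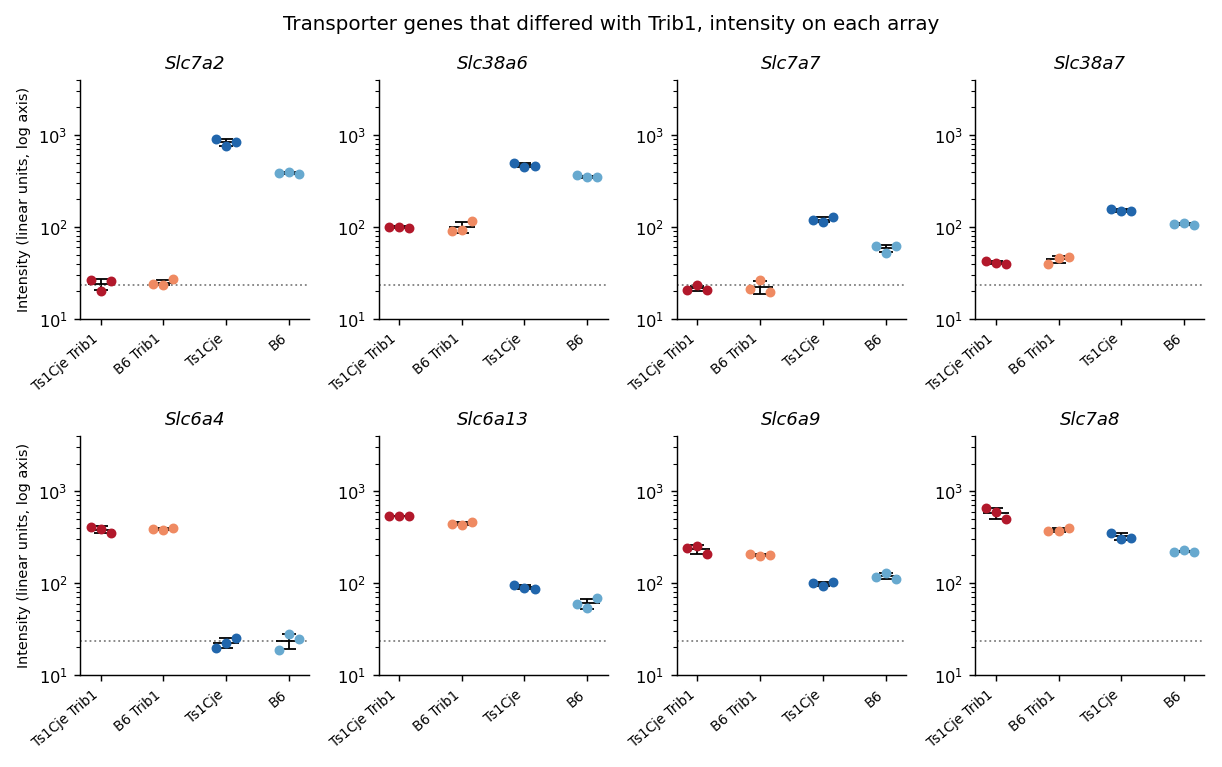
Intensity of 8 transporters that differed with Trib1 on each of the 12 arrays, on a log axis, with 1 point per array, bars for the mean and SD of 3 arrays and a dotted line at 23.5, the highest 40th percentile. Slc7a2, Slc7a7 and, in reverse, Slc6a4 reach the dotted line at 1 end of the comparison, whereas Slc38a6, Slc6a13, Slc6a9 and Slc7a8 stay above it in all groups.

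In the Slc38 family of glutamine and neutral amino acid carriers, Slc38a6, Slc38a7 and Slc38a9 fell in both genotypes and the bright members changed by less. Slc38a6 read 100.3, 101 and 97.1 in Ts1Cje Trib1, 91.2, 93.2 and 115 in B6 Trib1, 499, 453 and 461 in Ts1Cje and 364, 347 and 349 in B6. The lines were well below both groups of cells, with differences of -2.09 ± 0.066, or 4.25-fold lower, in the Ts1Cje (adjusted p = 4.41e-12, limma) and -1.69 ± 0.066, or 3.22-fold lower, in the B6 background (adjusted p = 7.70e-11, limma). Slc38a7 (SNAT7), which exports glutamine and asparagine from lysosomes, read 42.4, 40.5 and 39.3 in Ts1Cje Trib1, 39.8, 45.9 and 47.2 in B6 Trib1, 157, 148 and 148 in Ts1Cje and 107, 109.9 and 105 in B6. It fell by 1.58 ± 0.048 (adjusted p = 3.26e-12, limma) and by 1.05 ± 0.048 (adjusted p = 4.50e-10, limma) in the same comparisons. Slc38a9, the lysosomal arginine sensor of mTORC1, was lower at -0.69 and -0.69 in the same comparisons (adjusted p = 0.000246 and 0.000278, limma), and its 3 other probe sets gave differences from -0.31 to -0.0895.

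Slc38a10, a bright and little-studied member, read 1744, 1761 and 1849.7 in Ts1Cje Trib1, 1453, 1515 and 1622 in B6 Trib1, 1239, 1275 and 1192 in Ts1Cje and 1177, 1207 and 1172 in B6. The lines were above the cells, by 0.53 ± 0.045 in the Ts1Cje (adjusted p = 2.19e-07, limma) and 0.36 ± 0.045 in the B6 background (adjusted p = 1.28e-05, limma). Of its 8 probe sets, 7 were higher in B6 Trib1 than in B6 and 1 was lower at -0.25. Slc38a2 (SNAT2), which cells raise when starved of amino acids, averaged 1435 ± 15.3 in Ts1Cje Trib1, 1464 ± 35.4 in B6 Trib1, 1279.9 ± 40.2 in Ts1Cje and 1479.8 ± 32.5 in B6. It rose by 0.16 in the Ts1Cje background (adjusted p = 0.00156, limma) and did not pass in the B6 background, at -0.015. Its 2 other probe sets gave 0.18 and 0.04 in the Ts1Cje background and -0.30 and 0.02 in the B6 background. Slc38a1 (SNAT1), the related glutamine importer, rose by 0.19 and 0.091 (adjusted p = 0.000328 and 0.0343, limma), where its second probe set gave 0.0033 and -0.25.

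Slc36 carriers move small amino acids with protons, and 2 of the 4 tested symbols were well measured. Slc36a1 (PAT1), found on lysosomes, read 215, 185 and 151 in Ts1Cje Trib1, 238, 221 and 212 in B6 Trib1, 381, 345 and 369 in Ts1Cje and 264, 258 and 258 in B6. It fell by 0.95 ± 0.089 in the Ts1Cje background (adjusted p = 5.37e-07, limma), while the difference of -0.21 ± 0.089 in the B6 background missed the threshold (adjusted p = 0.0584, limma) although the groups did not overlap. That B6 difference passed with only the groups compared (adjusted p = 0.00351, limma). It also passed without array 1 or array 3 of Ts1Cje Trib1 (adjusted p = 0.0176 and 0.0086, limma). Slc36a2 (PAT2), a carrier of glycine and proline, read 24.7, 26.5 and 25.7 in Ts1Cje Trib1, 31.2, 31.3 and 35.98 in B6 Trib1, 101, 83.4 and 102 in Ts1Cje and 55.99, 57.2 and 51.9 in B6. Both lines were dim, and the differences were -1.44 ± 0.065 (adjusted p = 1.96e-10, limma) and -0.55 ± 0.065 (adjusted p = 6.83e-06, limma).

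Slc43 carriers let neutral amino acids equilibrate across membranes, except Slc43a3, which carries purine nucleobases. Slc43a2 (LAT4) read 232, 242 and 225 in Ts1Cje Trib1, 324, 333 and 326 in B6 Trib1, 453, 457 and 462 in Ts1Cje and 351, 372 and 375 in B6. It was lower in both lines, at -0.93 ± 0.038 in the Ts1Cje (adjusted p = 7.04e-11, limma) and -0.15 ± 0.038 in the B6 background (adjusted p = 0.00344, limma), and its other probe set gave -1.06 and -0.67. With quantile normalization the B6 difference was -0.090 and with centring on the tested genes -0.043, and the call was lost (adjusted p = 0.0619 and 0.426, limma). Slc43a1 (LAT3) read 61.8, 68.9 and 67.3 in Ts1Cje Trib1, 73.4, 76.1 and 71.1 in B6 Trib1, 71.98, 75.4 and 76.8 in Ts1Cje and 144, 116 and 155 in B6. B6 cells were the high group, so that the difference was -0.79 in B6 Trib1 against B6 (adjusted p = 9.01e-07, limma) and the Ts1Cje difference of -0.15 did not pass. Slc43a3 read 250.3, 251 and 229.7 in Ts1Cje Trib1, 288, 256 and 287 in B6 Trib1, 315, 286 and 302 in Ts1Cje and 298, 325 and 313 in B6. It was lower in both lines without overlap, at -0.29 (adjusted p = 0.000441, limma) in the Ts1Cje and -0.16 (adjusted p = 0.0196, limma) in the B6 background, where the call was lost without array 2 of B6 Trib1, array 2 of B6 or array 3 of B6 (adjusted p = 0.0974, 0.078 and 0.0508, limma). It was lost there also with quantile normalization, at -0.085, and with centring on the tested genes, at -0.054 (adjusted p = 0.122 and 0.32, limma). In the Slc1 family, the glutamine importer Slc1a5 (ASCT2) read 538, 568 and 533 in Ts1Cje Trib1, 496, 517 and 499.8 in B6 Trib1, 629, 585 and 594 in Ts1Cje and 810.4, 798 and 767 in B6. It fell by 0.14 ± 0.041 (adjusted p = 0.0104, limma) in Ts1Cje Trib1 against Ts1Cje and by 0.64 ± 0.041 (adjusted p = 1.53e-08, limma) in B6 Trib1 against B6. Its second probe set gave -0.063 and -0.44, and with the mean of both the Ts1Cje difference of -0.10 did not pass (adjusted p = 0.117, limma). The glutamate and cysteine carrier Slc1a1 was dim, with group means from 26.5 ± 0.939 in Ts1Cje Trib1 down to 19.7 ± 0.606 in B6.

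**Figure D3:**
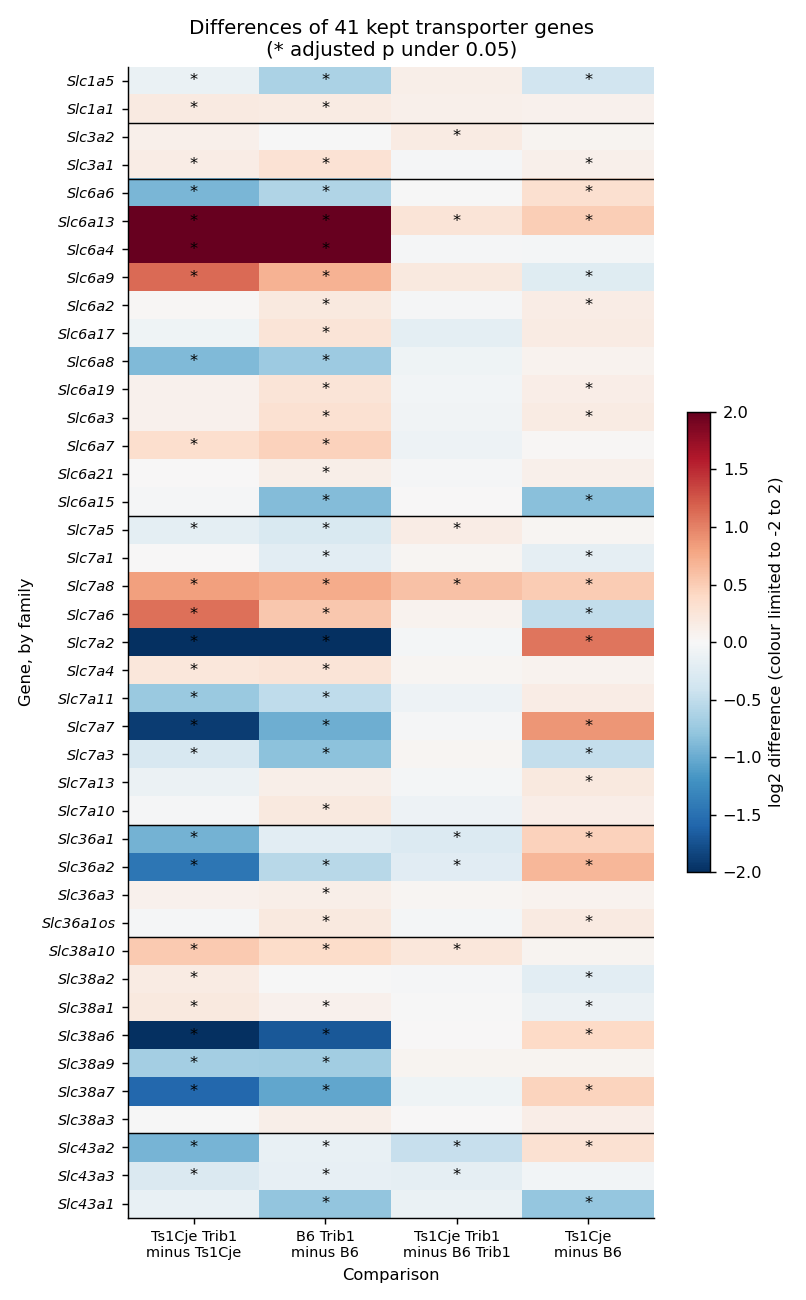
Log2 differences of the 41 tested transporters, grouped by family and ordered by brightness, in 4 comparisons, with a star where the adjusted p was under 0.05 and the colour limited to differences of 2. The Trib1 columns on the left hold the strongest colours, and the column of Ts1Cje Trib1 against B6 Trib1 has 9 stars.

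The direction with Trib1 was the same in both genotypes wherever both comparisons passed. In both genotypes 11 genes were higher, against 19.4% of all genes, and 14 were lower, against 19.7%. None of the 41 passed in opposite directions in limma (0, and 0 also at an unadjusted p under 0.05), where 4.85% of all genes did. The genes higher in both were Slc1a1, Slc3a1, Slc6a4, Slc6a7, Slc6a9, Slc6a13, Slc7a4, Slc7a6, Slc7a8, Slc38a1 and Slc38a10. Of these, Slc1a1 and Slc6a7 came through the filter by groups where they were high. The second probe set of Slc38a1 was at 0.0033 in the Ts1Cje and at -0.25 in the B6 background. The genes lower in both were Slc1a5, Slc6a6, Slc6a8, Slc7a2, Slc7a3, Slc7a5, Slc7a7, Slc7a11, Slc36a2, Slc38a6, Slc38a7, Slc38a9, Slc43a2 and Slc43a3, of which Slc1a5, Slc43a2 and Slc43a3 lost 1 of their calls under the settings named above. Slc7a7 came through the filter by the cells, where it was high. Slc6a8 and Slc38a9 were not recomputed singly under other settings, nor were Slc1a1, Slc3a1, Slc6a7, Slc7a4 and Slc38a1 of the higher genes. A further 11 passed in the B6 background and missed the threshold in the Ts1Cje background, where 21.3% of all genes did. The reverse held for 2 (Slc36a1 and Slc38a2), against 16.9% of all genes, and 3 passed in neither (Slc3a2, Slc7a13 and Slc38a3), against 17.9%. The groups did not overlap for 39 of 41 genes in B6 Trib1 against B6 and for 30 in Ts1Cje Trib1 against Ts1Cje, where this held for 72.6% and 64.3% of all genes. As a description, the pair of differences correlated across the 41 genes at Pearson's r = 0.94 and Spearman's rho = 0.852, where all genes share the same arrays.

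**Figure D4:**
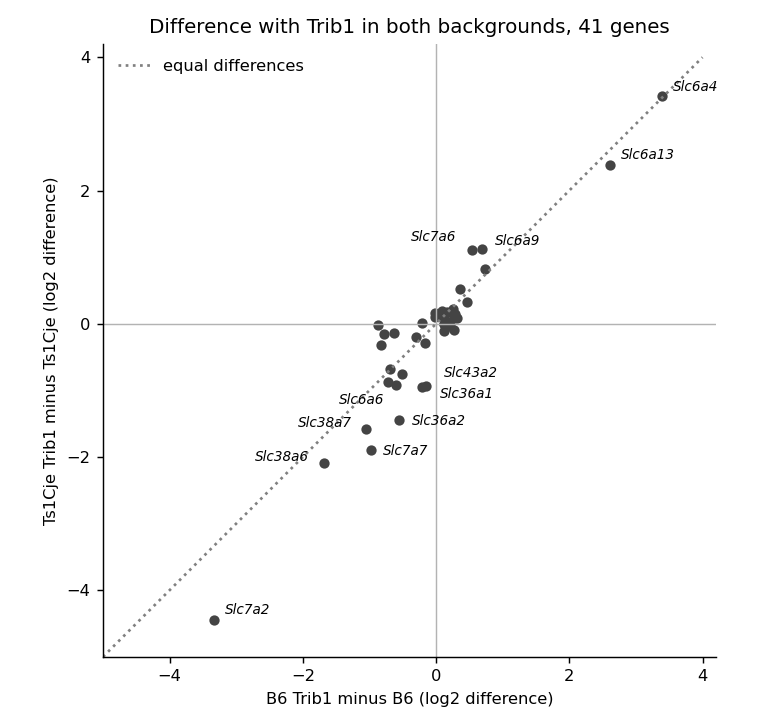
Log2 difference with Trib1 in the Ts1Cje background (vertical) against that in the B6 background (horizontal), with 1 point per tested gene and a dotted line of equal differences. Slc6a4 and Slc6a13 lie near the line, and Slc7a2, Slc7a7, Slc36a2, Slc43a2 and Slc36a1 lie below it.

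Without Trib1, Ts1Cje cells had more Slc7a2, Slc7a7, Slc36a2, Slc7a8 and Slc6a13 than B6 cells and less Slc43a1 and Slc7a6. Slc6a15, counted below among the lower genes, was kept through B6 alone, so the filter favoured its fall. In limma 25 of 41 genes passed, where 52.6% of all genes did, with 16 higher against a background of 23.3% and 9 lower against 29.3%. After centring the arrays on the median of the tested genes, 26 were higher and 6 lower, and 69% of all calls were higher instead of 44.3%. The median log2 difference of the 41 genes was 0.095, against 0.0088 over all genes, and 25 had groups that did not overlap, against 60.4% of all genes. The largest rise was that of Slc7a2, which averaged 832 ± 68.7 in Ts1Cje and 386 ± 8.25 in B6, a log2 difference of 1.08 ± 0.068 or 2.11-fold (adjusted p = 4.88e-08, limma). It was the one member past 2-fold, where 0.502% of all genes were at least 2-fold higher and 0.836% lower. Its 3 kept probe sets gave between 1.07 and 1.16, and 1 more was too dim to be kept. Slc7a7 followed, at 120.4 ± 7.24 in Ts1Cje and 58.6 ± 5.65 in B6, a difference of 0.88 ± 0.072 (adjusted p = 5.27e-07, limma).

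Slc36a2 was higher in Ts1Cje by 0.66 (adjusted p = 2.95e-06, limma), Slc7a8 by 0.51 (adjusted p = 0.000227, limma) and Slc6a13 by 0.49 (adjusted p = 2.11e-05, limma), without overlap of the arrays listed above. The lysosomal carriers Slc36a1 and Slc38a7 rose by 0.47 and 0.44, and Slc38a6, Slc6a6 and Slc43a2 by 0.40, 0.31 and 0.31. Among the genes that fell, Slc6a15 averaged 13.5 ± 0.305 in Ts1Cje, below the 40th percentile, and 35.7 ± 1.91 in B6 (log2 difference -0.83, adjusted p = 1.82e-09, limma). Slc43a1 averaged 74.7 ± 2.47 in Ts1Cje and 139 ± 20.2 in B6 (log2 difference -0.77, adjusted p = 2.77e-06, limma). Slc7a6 fell by 0.49, Slc7a3 by 0.47, Slc1a5 by 0.39, Slc6a9 by 0.24, Slc38a2 by 0.21, Slc7a1 by 0.17 and Slc38a1 by 0.11. The dim Slc3a1, Slc6a2, Slc6a3, Slc6a19, Slc7a13 and Slc36a1os rose by 0.11 to 0.19. For Slc6a9 the second probe set gave 0.09, and the call was lost with the mean of its probe sets at -0.078, with quantile normalization and with centring on the tested genes (adjusted p = 0.266, 0.066 and 0.0597, limma). The heavy chain Slc3a2 and its partner Slc7a5 did not pass, at 0.06 (95% interval -0.037 to 0.16) and 0.041 (-0.03 to 0.11). Slc7a11 also missed the threshold at 0.14 (adjusted p = 0.0561, limma), and its second probe set gave -0.55, so with the mean of both it was lower, at -0.21 (adjusted p = 0.0358, limma).

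The sum of the monocyte and macrophage markers was higher in Ts1Cje than in B6, as given above. The 5 markers of neutrophils and primitive myeloid cells summed to 15340 to 15919 in Ts1Cje and 9742 to 9919 in B6. The B-cell sum moved the other way, for the 4 measured genes from 1349 to 1494 in Ts1Cje and 3545 to 3774 in B6. In the lines these sums were 2288 to 2315 in Ts1Cje Trib1 and 6297 to 6451 in B6 Trib1 for the neutrophil list, and 119 to 137 in Ts1Cje Trib1 and 114 to 136 in B6 Trib1 for the B-cell list. The part of these cell types in the transporter differences was not tested. The 5 megakaryocyte markers summed to 7390 to 7699 in Ts1Cje Trib1, 8483 to 8734 in B6 Trib1, 4542 to 4727 in Ts1Cje and 5610 to 5763 in B6. The 4 T and NK cell markers summed to 2606 to 2702 in Ts1Cje Trib1, 2013 to 2016 in B6 Trib1, 893 to 951 in Ts1Cje and 890 to 941 in B6. The members of that list moved in different directions. The granule genes Gzma and Nkg7 were higher in B6 Trib1 than in B6, by 1.61 and 1.07 on the log2 scale, and the T-cell receptor subunits Cd3g and Cd3e were lower, at -1.44 and -0.36. In Ts1Cje against B6, Gzma and Cd3g were at -1.72 and -0.88 and Nkg7 at 0.74. Of 5 stromal and endothelial markers the collagens Col1a1, Col1a2 and Col3a1 were not kept, and of 5 neuronal markers Snap25 and Slc17a7 were not kept. All 5 neuronal markers, with these included, summed to 151 to 158 in Ts1Cje Trib1, 157 to 166 in B6 Trib1, 147 to 168 in Ts1Cje and 144 to 154 in B6. All 5 stromal and endothelial markers, with the collagens included, summed to 783 to 982 in Ts1Cje Trib1, 761 to 842 in B6 Trib1, 321 to 411 in Ts1Cje and 381 to 399 in B6. Of these, Pecam1 and Cdh5 were kept.

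Between the lines, Ts1Cje Trib1 had more Slc7a8, Slc6a13 and Slc38a10 than B6 Trib1 and less Slc43a2 and Slc36a2. In limma 9 of 41 genes passed, where 21.5% of all genes did, with 5 higher against 11.9% and 4 lower against 9.63%, and 13 had groups that did not overlap, against 36.4% of all genes. Median centring of the arrays over all probe sets gave 5 higher and 2 lower, and centring over the tested genes gave 3 and 4. Slc7a8 averaged 582 ± 79.5 in Ts1Cje Trib1 and 380.3 ± 15.7 in B6 Trib1, a log2 difference of 0.59 ± 0.084 (adjusted p = 0.000189, limma). Slc43a2 averaged 233 ± 8.49 in Ts1Cje Trib1 and 327 ± 4.57 in B6 Trib1, a difference of -0.47 ± 0.038 (adjusted p = 1.15e-06, limma). These 2 were the largest differences between the lines, and no member reached 2-fold, where 0.111% of all genes were at least 2-fold higher and 0.541% lower.

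Smaller differences were found for Slc6a13 at 0.27, Slc38a10 at 0.22, Slc3a2 at 0.17 and Slc7a5 at 0.15 among the genes that rose (adjusted p = 0.00658, 0.00333, 0.0182 and 0.00578, limma). Slc36a2 at -0.23, Slc43a3 at -0.17 and Slc36a1 at -0.28 were lower (adjusted p = 0.0199, 0.0402 and 0.0437, limma). The calls of Slc3a2 and Slc7a5 were lost with centring on the tested genes, at 0.15 and 0.13 (adjusted p = 0.0781 and 0.0613, limma). Those of Slc3a2, Slc36a1, Slc36a2 and Slc43a3 depended on single arrays. Slc3a2 lost its call without any 1 of 4 arrays, arrays 1 and 3 of B6 Trib1 and arrays 1 and 2 of Ts1Cje Trib1 (adjusted p from 0.0565 to 0.0788, limma). Slc43a3 lost it without any 1 of 7 arrays (0.0512 to 0.151), arrays 1 and 3 of B6 Trib1, array 3 of B6, array 3 of Ts1Cje and each array of Ts1Cje Trib1. Slc36a1, whose groups overlapped, lost it without any 1 of 8 arrays (0.0553 to 0.159), each array of B6, array 3 of Ts1Cje, arrays 1 and 2 of B6 Trib1 and arrays 2 and 3 of Ts1Cje Trib1, and its difference was -0.15 without array 3 of Ts1Cje Trib1. Slc36a2 lost its call without array 1 of Ts1Cje Trib1 or array 3 of B6 Trib1 (adjusted p = 0.07 and 0.072, limma). Slc7a2, Slc7a7 and Slc6a15, which had large genotype differences among cells without Trib1, were near or below the 40th percentile in both lines. Their differences there were -0.036 (95% interval -0.18 to 0.11), -0.031 (-0.19 to 0.12) and 0.013 (-0.067 to 0.094).

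Comparing the genotype difference with and without Trib1 directly, as an interaction, 25 of 41 genes passed in limma, where 48.6% of all genes did, with 8 positive against 28.4% and 17 negative against 20.2%. With 1 array left out, the negative ones numbered from 10 to 17. They were 10 without array 3 of Ts1Cje, and 11 without array 2 of Ts1Cje, array 1 or 2 of B6 Trib1, or array 1 or 2 of Ts1Cje Trib1. Centring the arrays on the median of the tested genes gave 6 positive and 21 negative, and 35.5% of all calls were then positive instead of 58.5%. A negative value means that the Ts1Cje minus B6 difference was lower with Trib1 than without it. Slc43a2 had one of the clearest, at -0.78 ± 0.054 (adjusted p = 1.22e-07, limma), being higher in Ts1Cje than in B6 and lower in Ts1Cje Trib1 than in B6 Trib1. Slc36a2 (-0.89, adjusted p = 5.21e-06, limma) and Slc36a1 (-0.74, adjusted p = 0.000368, limma) likewise passed in opposite directions in the 2 genotype comparisons, and these 3 were the only genes of the 41 to do so, where 10.1% of all genes did. The count was 5 at an unadjusted p under 0.05. Between the lines, the calls of Slc36a1 and Slc36a2 depended on single arrays, as given above. That of Slc36a1 was also lost with median centring, an offset of 1, a floor at 15, no filter and only the groups compared (adjusted p from 0.0559 to 0.106, limma). Slc7a2 (-1.11, adjusted p = 1.03e-06, limma), Slc7a7 (-0.91, adjusted p = 1.07e-05, limma) and Slc6a15 (0.85, adjusted p = 4.01e-08, limma) also passed, but they were dim in both lines and Slc6a15 was kept through B6 alone, so these interactions rest on the difference among the cells.

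Slc7a8 and Slc6a13 were higher with the Ts1Cje genotype in both settings, where 2.42% of all genes were, and 0 of the 41 were lower in both, also at an unadjusted p under 0.05, where 1.97% of all genes were lower in both. For Slc7a8 the genotype difference was 0.59 with Trib1 and 0.51 without it, and the interaction of 0.078 (95% interval -0.18 to 0.33) did not pass. A further 20 genes passed without Trib1 and missed the threshold with it, where 38.1% of all genes did, and 12 passed in neither, among them Slc6a4, Slc6a8, Slc7a11 and Slc38a9, where 40.4% of all genes did. The reverse held for 4 (Slc3a2, Slc7a5, Slc38a10 and Slc43a3), against 7.04% of all genes. For these 4 the interaction itself did not pass (adjusted p = 0.186, 0.0764, 0.052 and 0.202, limma). Some other settings brought it under the threshold for all but Slc3a2. Examples are median centring for Slc38a10 and Slc7a5 (adjusted p = 0.0382 and 0.0455, limma) and quantile normalization for Slc43a3 (adjusted p = 0.0191, limma). With centring on the tested genes Slc3a2, Slc7a5 and Slc38a10 passed without Trib1 (adjusted p = 0.0278, 0.0202 and 0.0236, limma).

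**Figure D5:**
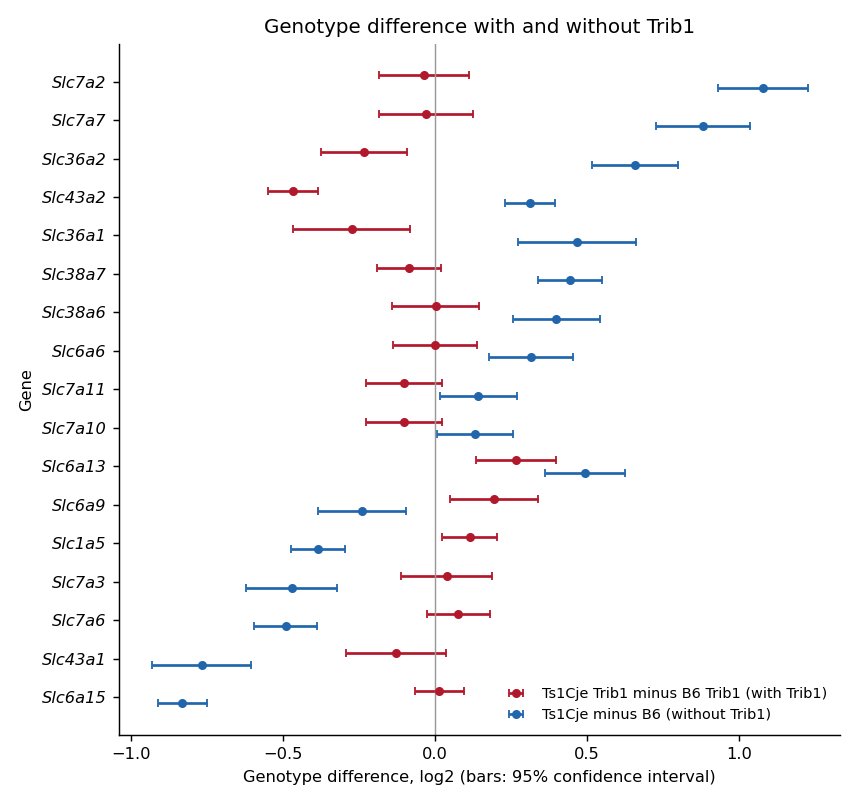
Genotype difference (log2, with 95% confidence interval) of 17 transporters with an interaction that passed, in the lines (Ts1Cje Trib1 minus B6 Trib1) and in the cells without Trib1 (Ts1Cje minus B6). Slc43a2, Slc36a2, Slc36a1, Slc1a5 and Slc6a9 have intervals on opposite sides of 0, and for Slc7a2, Slc7a7 and Slc6a15, dim in both lines, the interval with Trib1 includes 0.

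Promoters of some members carry motifs of factors that act on amino acid genes, and 4 of them are shown with 1 that carries no match. RefSeq windows of the GRCm38.p6 build, from 250 bases before to 50 after the gene start, covered 41 of the 58 members, and 26 of the 41 tested ones in 38 windows. The searched letters, on both strands, were TGATGNAA for the site that ATF4 shares with C/EBP factors, CACGTG for the E-box read by MYC and TFEB, and AGATAA for GATA factors, and no printed matches overlap. TGATGNAA occurred in 3.97% of all 32851 windows, and in 4 of the 38 windows of tested members, those of Slc6a21, Slc7a7 and Slc7a11. CACGTG occurred in 7.15% of all windows, and in 4 of the 38, those of Slc6a3, Slc36a1, Slc38a7 and Slc43a1. AGATAA occurred in 11.2% of all windows, and in 3 of the 38, those of Slc3a1 and Slc7a7. The windows below are written 5′ to 3′ on the strand of the gene, with matches in capitals. They lie at chr3:50443564-50443863, minus strand (Slc7a11), chr14:54417895-54418194, minus strand (Slc7a7), chr11:55204090-55204389, plus strand (Slc36a1), chr8:95853442-95853741, minus strand (Slc38a7) and chr11:76998347-76998646, plus strand (Slc6a4, the largest rise, no match).
Slc7a11: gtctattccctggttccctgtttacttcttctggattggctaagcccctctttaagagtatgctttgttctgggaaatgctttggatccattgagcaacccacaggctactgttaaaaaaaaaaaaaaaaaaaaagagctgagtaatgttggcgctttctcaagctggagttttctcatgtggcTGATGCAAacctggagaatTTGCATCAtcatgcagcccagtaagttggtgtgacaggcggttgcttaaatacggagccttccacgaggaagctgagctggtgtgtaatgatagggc
Slc7a7: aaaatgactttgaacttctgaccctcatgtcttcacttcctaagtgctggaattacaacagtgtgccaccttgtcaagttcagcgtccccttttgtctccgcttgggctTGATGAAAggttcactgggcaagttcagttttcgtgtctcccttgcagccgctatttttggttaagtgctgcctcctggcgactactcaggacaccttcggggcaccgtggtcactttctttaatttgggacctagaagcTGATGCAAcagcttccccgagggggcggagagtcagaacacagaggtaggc
Slc36a1: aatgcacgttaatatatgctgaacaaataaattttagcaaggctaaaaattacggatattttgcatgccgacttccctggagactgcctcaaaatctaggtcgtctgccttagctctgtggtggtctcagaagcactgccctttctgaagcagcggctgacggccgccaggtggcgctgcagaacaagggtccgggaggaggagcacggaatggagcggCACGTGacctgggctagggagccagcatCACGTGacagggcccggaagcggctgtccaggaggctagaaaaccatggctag
Slc38a7: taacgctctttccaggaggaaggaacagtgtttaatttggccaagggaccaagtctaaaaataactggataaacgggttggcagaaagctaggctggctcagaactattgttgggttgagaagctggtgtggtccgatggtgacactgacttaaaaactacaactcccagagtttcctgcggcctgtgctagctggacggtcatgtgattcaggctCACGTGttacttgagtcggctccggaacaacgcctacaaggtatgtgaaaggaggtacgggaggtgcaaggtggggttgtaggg
Slc6a4: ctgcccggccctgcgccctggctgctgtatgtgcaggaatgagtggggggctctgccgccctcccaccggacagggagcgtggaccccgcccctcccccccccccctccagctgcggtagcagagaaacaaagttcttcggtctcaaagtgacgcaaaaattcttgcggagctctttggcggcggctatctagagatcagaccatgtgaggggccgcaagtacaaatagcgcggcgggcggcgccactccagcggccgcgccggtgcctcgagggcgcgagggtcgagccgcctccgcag
Slc7a11 and Slc7a7, both lower with Trib1 in both genotypes, each carry 2 copies of the ATF4 and C/EBP letters in the printed window. For Slc7a7 this is 1 of 5 windows and the one with the most such copies. The AGATAA match of Slc7a7 lies only in windows not printed. The third tested member with these letters, the dim Slc6a21, was higher in B6 Trib1 than in B6, at 0.12 (adjusted p = 0.0291, limma), and did not pass in the Ts1Cje background. Slc36a1 carries 2 E-box matches and Slc38a7 carries 1. A match is a description of these letters and not a binding site, and the windows were chosen with the values known.

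The lists of related pathways were read for the direction of their measured genes. Over all genes, 60.9% passed in Ts1Cje Trib1 against Ts1Cje, 65.2% in B6 Trib1 against B6, 52.6% in Ts1Cje against B6 and 21.5% in Ts1Cje Trib1 against B6 Trib1. In the list of ATF4 and amino acid deprivation response genes, 17 of 19 tested genes passed in B6 Trib1 against B6, 5 higher and 12 lower, and 15 passed in Ts1Cje Trib1 against Ts1Cje, 4 higher and 11 lower. These were 89.5% and 78.9% of the list. The medians of the list were -0.31 in the B6 and -0.23 in the Ts1Cje background, against 0.0297 and 0.0222 over all genes. Pairs of Trib1 differences in these lists are those in the Ts1Cje background followed by those in the B6 background. The ATF4 relative Atf5 averaged 172 ± 8.98 in Ts1Cje Trib1, 135 ± 8.59 in B6 Trib1, 974 ± 67.7 in Ts1Cje and 639.6 ± 32.6 in B6, with differences of -2.40 and -2.12 (adjusted p = 4.42e-13 and 3.03e-12, limma). Nupr1, a stress-induced chromatin protein, fell by 1.43 in B6 Trib1 against B6, and Cebpb by 1.28 in Ts1Cje Trib1 against Ts1Cje. Ppp1r15a, which restores translation after stress by dephosphorylating eIF2 alpha, went the other way at 1.41 and 0.97. In Ts1Cje against B6, 12 of the 19 genes were higher and 5 lower (89.5% passed), with Trib3 at 0.57, Nupr1 at 0.70 and Atf5 at 0.59. In Ts1Cje Trib1 against B6 Trib1, 5 were higher and 2 lower (36.8% passed), with Trib3 at 0.45 and Cebpb at -0.58.

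Glutathione synthesis depends on cystine, the cargo of Slc7a11, and the genes of that list moved in both directions. In Ts1Cje Trib1 against Ts1Cje, 5 of 14 tested genes of glutamine, cystine and glutathione metabolism were higher and 5 lower, and in B6 Trib1 against B6 7 were higher and 4 lower, so 71.4% and 78.6% passed. Glutathione reductase, Gsr, averaged 664 ± 29.04 in Ts1Cje Trib1, 866 ± 14.4 in B6 Trib1, 2036 ± 55.3 in Ts1Cje and 1524 ± 25.4 in B6 and was lower with Trib1, at -1.60 and -0.81 (adjusted p = 3.79e-13 and 8.32e-10, limma). The 2 subunits of the enzyme that starts glutathione synthesis, Gclc and Gclm, rose by 1.05 and 0.53 in the Ts1Cje background. Between genotypes, 5 were higher and 3 lower in Ts1Cje against B6 (57.1% passed), with Gsr at 0.41 and Gclc at -0.52, and 3 were higher and 2 lower in Ts1Cje Trib1 against B6 Trib1 (35.7% passed), with Gsr at -0.38 and the peptidase Anpep at 0.48.

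In the list of mTORC1 and lysosomal amino acid sensing, 14 of 28 tested genes were lower and 5 higher in Ts1Cje Trib1 against Ts1Cje, and 11 were lower and 7 higher in B6 Trib1 against B6. The shares that passed, 67.9% and 64.3%, were near those over all genes. Fnip2, a partner of folliculin, averaged 291 ± 12.9 in Ts1Cje Trib1, 383 ± 10.4 in B6 Trib1, 1136 ± 9.92 in Ts1Cje and 988 ± 15.7 in B6, with differences of -1.91 and -1.33 (adjusted p = 5.10e-14 and 3.77e-12, limma). The Rag GTPase gene Rragd was lower, with differences of -1.62 and -1.61, and Tfeb, which drives lysosome genes, fell by 0.79 in the Ts1Cje background. In Ts1Cje against B6, 11 were higher, including Rragc at 0.34, and 6 lower, including Sesn3 at -0.84 (60.7% passed). In Ts1Cje Trib1 against B6 Trib1, 2 were higher and 3 lower (17.9% passed), with Seh1l at 0.39 and Fnip2 at -0.38.

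Among 18 tested amino acid and peptide carriers of other families, 12 were lower and 2 higher in Ts1Cje Trib1 against Ts1Cje, and 9 were lower and 1 higher in B6 Trib1 against B6, so 77.8% and 55.6% passed. The medians were -0.23 in the Ts1Cje and -0.11 in the B6 background, against 0.0222 and 0.0297 over all genes. The lysosomal peptide carrier Slc15a3 averaged 94.95 ± 2.30 in Ts1Cje Trib1, 162 ± 5.01 in B6 Trib1, 722 ± 21.8 in Ts1Cje and 620.4 ± 4.77 in B6, with differences of -2.74 and -1.84 (adjusted p = 1.03e-15 and 8.82e-14, limma). Slc66a1, which exports cationic amino acids from lysosomes, was lower, with differences of -1.90 and -1.20, and the lysosomal cystine exporter Ctns fell by 1.02 in the Ts1Cje background. In Ts1Cje against B6, 4 were higher, including Slc66a1 at 0.52 and Ctns at 0.39, and 2 lower, including the peptide importer Slc15a2 at -0.52 (33.3% passed). In Ts1Cje Trib1 against B6 Trib1, 5 were lower (27.8% passed), led by Slc15a3 at -0.69 and the mitochondrial aspartate and glutamate carriers Slc25a13 at -0.47 and Slc25a12 at -0.27.

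Of 16 tested genes for serine, glycine, proline and asparagine synthesis, 5 were higher and 8 lower in Ts1Cje Trib1 against Ts1Cje, and 2 were higher and 9 lower in B6 Trib1 against B6, so 81.2% and 68.8% passed. The phosphatase Psph, which completes serine synthesis, fell by 0.69 in the B6 background, and the cysteine-producing enzyme Cth was lower at -0.60 and -0.43, whereas the branched-chain transaminase Bcat1 was at 0.42 and -0.35. Between genotypes, 3 were higher and 5 lower in Ts1Cje against B6 (50% passed), with Bcat1 at -0.50 and Shmt1 at -0.39, and 4 were higher in Ts1Cje Trib1 against B6 Trib1 (25% passed), with Psph at 0.36 and Bcat1 at 0.26. Of 19 tested genes for cytosolic tRNA synthetases and their scaffold, 8 were higher and 3 lower in Ts1Cje Trib1 against Ts1Cje, and 2 were higher and 12 lower in B6 Trib1 against B6, so 57.9% and 73.7% passed. The alanine enzyme Aars was lower at -0.52 and -0.51, and the isoleucine enzyme Iars rose by 0.43 in the Ts1Cje background. In Ts1Cje against B6, 1 was higher and 10 lower (57.9% passed), with the valine enzyme Vars at -0.48, and in Ts1Cje Trib1 against B6 Trib1 only the serine enzyme Sars passed (5.26%), at 0.19.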

How the data were processed

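Gene expression was read on 12 Affymetrix mouse arrays with perfect-match probes, 3 in each of 4 groups taken from the labels. The deposited values are intensities on a linear scale, made by the authors with MAS5 per the submitters' processing notes, and the scaling target is not given in the sources used here. Depth has no meaning for arrays, and the 3 arrays of a group limit the precision.

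Probe sets with 1 gene symbol in the platform annotation were used (28898 of 45141, with 551 of several symbols, 15588 of none and 104 controls left out). A probe set was kept when above its array's 40th percentile on at least 3 arrays, and the kept one with the highest mean stood for its gene. The log2(intensity + 15) values were fitted with limma 3.58.1 in R 4.3.3, with 1 mean per group over all 12 arrays, 4 pairwise contrasts and an interaction. P-values were adjusted by Benjamini-Hochberg over 12560 genes, with 0.05 as the threshold. The script was tested on simulated data.

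Values on every array were given for the 8 largest passing differences without overlap in each contrast, the 6 largest interactions, the member of each family with the highest mean and Slc3a2 with its partners, and for a few further members. From each of 6 pathway lists, counts and up to 3 genes per contrast with the smallest adjusted p were given. Markers of 10 cell types were summed on the linear scale, so the brightest genes of a list weigh most. Members and lists were chosen with earlier results of these data known, and the motifs and printed promoters after the values were seen. Alternatives were other scalings, offsets, filters, probe set rules and fits, a replicate block and each array left out.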

Additional observations from a re-analysis of the deposited data

Results flagged for a closer look

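For 17 of the transporters described with values on every array, the genotype difference in the lines (Ts1Cje Trib1 minus B6 Trib1) differed from that in the cells without Trib1 (Ts1Cje minus B6) by the interaction test in limma. Negative interactions, meaning a lower Ts1Cje difference with Trib1, were -1.11 for Slc7a2, -0.91 for Slc7a7, -0.89 for Slc36a2, -0.78 for Slc43a2, -0.74 for Slc36a1, -0.53 for Slc38a7, -0.40 for Slc38a6, -0.31 for Slc6a6, -0.24 for Slc7a11, -0.23 for Slc7a10 and -0.23 for Slc6a13. Positive ones were 0.44 for Slc6a9, 0.50 for Slc1a5, 0.51 for Slc7a3, 0.57 for Slc7a6, 0.64 for Slc43a1 and 0.85 for Slc6a15. Slc7a2, Slc7a7 and Slc6a15 were near or below the 40th percentile in both lines, so their values rest on the difference among the cells.

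The weakest were Slc6a13, Slc7a10 and Slc7a11, with adjusted p = 0.0442, 0.0323 and 0.0267 in limma. Leaving out 1 array ended the call in 10 of 12 cases for Slc6a13 (adjusted p from 0.0556 to 0.103), in 8 for Slc7a10 (0.0564 to 0.0819) and in 6 for Slc7a11 (0.0536 to 0.0678).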

How the results depend on the processing

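Only the members chosen by the rules above for values on every array were recomputed as single genes. Of 2712 values of single genes recomputed under 24 settings, 2568 kept direction and side of the threshold, 69 missed it, 35 newly passed, 38 changed sign without a call on either side and 2 changed sign with a call. Those 2 were Slc7a11 with the mean of its probe sets, at -0.21 in Ts1Cje against B6 (adjusted p = 0.0358, against 0.14 and 0.0561 with 1 probe set) and 0.24 for the interaction (adjusted p = 0.0816, against -0.24), where its probe sets disagree. The 4 members lower in Ts1Cje Trib1 against B6 Trib1 became 2 with median centring, 2 with a floor at 15 and 2 with only the groups compared, and ranged from 2 to 4 with 1 array left out. With the filter at the 60th percentile, 29 members were tested and 10 instead of 19 were higher in B6 Trib1 against B6. The 17 negative interactions ranged from 10 to 17 with 1 array left out. Centring on the median of the tested genes was chosen after seeing the data. It shifted the all-gene median by 0.096 in Ts1Cje against B6, 0.11 in B6 Trib1 against B6 and -0.11 for the interaction, and gave 26 instead of 16 higher in Ts1Cje against B6 and 3 instead of 5 in Ts1Cje Trib1 against B6 Trib1. The cause of these changes was not tested. The replicate numbers did not pair the arrays, with correlations from -0.446 to 0.355 over 18 pairs and 3 of 12 arrays most like their own number. With them as a replicate block, 25 members passed in Ts1Cje against B6, 8 in Ts1Cje Trib1 against B6 Trib1, 37 in B6 Trib1 against B6, 27 in Ts1Cje Trib1 against Ts1Cje and 25 for the interaction. The interaction has no value with only the groups compared.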
